A study of Rattus norvegicus with 18 samples.

Results

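The comparison described here is that of monosome with ribosome-free RNA from whole rat brain, measured isoform by isoform. Its members are 4 of the 18 libraries of the series, 2 of the monosome and 2 of the ribosome-free fraction, and the 28268 full-length transcripts (FLTs) whose levels were estimated in them. Of these isoforms, 19667 averaged 1 TPM or more across the 3 fractions (6 libraries) and were tested, and 8601 were not. TPM is the share of a library's transcripts taken by an isoform, scaled to a fixed total and already corrected for the isoform's length. Among the untested isoforms, 3712 were listed at 0 in all 6 libraries and 4889 were above 0 in at least 1. The limit fell between a mean of 1 TPM for the lowest isoform tested and 0.998 TPM for the highest left out.

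According to the labels the brains were those of male Sprague Dawley rats, 4 weeks old, with no treatment or genetic change named, and all fractions share this origin. Tissue was lysed with cycloheximide, which holds ribosomes on RNA, and the lysate was spread over a sucrose gradient from which the ribosome-free, monosome and polysome fractions were taken. The labels call the RNA polyadenylated, whereas the methods name a library kit for total RNA. The FLTs were assembled from hippocampus, so an isoform that other brain regions use and the hippocampus does not is not in the table. Neither the labels nor the methods say whether replicate libraries came from separate animals, and the p-values measure the spread between libraries, which may be technical.

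Sedimentation in such a gradient depends on how many ribosomes an RNA carries. Messenger RNA without ribosomes and many non-coding RNAs stay near the top, RNA with a single ribosome follows in the monosome peak, and RNA with several ribosomes travels further as polysomes. A longer coding sequence has room for more ribosomes. In neurons, RNAs of many synaptic proteins have been found on monosomes as well as on polysomes.

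As a check of the tissue label, 18 marker genes of neurons, astrocytes, microglia and endothelium were looked up among the isoforms that could be paired with genes. Summed over their isoforms, 11 of them were above 0 TPM in all 6 libraries and 7 were at 0 in at least 1. The neuronal genes summed to 189 and 230 TPM in ribosome-free and to 388 and 368 TPM in monosome RNA. Much of this came from Chgb, which went from 60.0 and 85.4 TPM to 220 and 164 TPM. Syn2 was at 0 in both monosome libraries, and Sv2a overlapped, with 20.3 and 4.1 TPM against 8.29 and 15.6 TPM. The astrocyte genes went from 61.7 and 85.7 TPM to 291 and 315 TPM, most of it from Bcan and Fgfr3, with Slc7a10 at 0 in both monosome libraries. The microglial genes went from 19.3 and 26.5 TPM to 49.1 and 44.4 TPM, with Csf1r at 0 in both monosome libraries and Tlr2 and Siglec5 at 0 in both ribosome-free libraries. The endothelial genes went from 48.4 and 56.4 TPM to 81.7 and 84.0 TPM, with Tie1 at 0 in both monosome libraries. These sums are of TPM as deposited. After the rescaling given below, they were 266 and 308 in ribosome-free against 325 and 310 in monosome RNA for neurons, 86.7 and 115 against 244 and 265 for astrocytes, 27.2 and 35.7 against 41.2 and 37.3 for microglia, and 67.97 and 75.8 against 68.5 and 70.8 for endothelium. In the astrocyte sum the monosome libraries lay far above the ribosome-free libraries on both scales, whereas in the endothelial sum the fractions overlapped after rescaling, and the part of cell makeup in the results below was not tested.

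A few short isoforms took up a large share of all TPM in ribosome-free RNA. The most abundant isoform of the ribosome-free libraries, with a read length of 595 nt and no gene name here, stood at 75857 and 74985 TPM there, at 24988 and 25308 TPM in monosome RNA, and at 6013 and 8058 TPM in polysome RNA. The 10 most abundant isoforms of the ribosome-free libraries ran from 423 to 1070 nt in length. They held 20.5% of the TPM in both of these libraries, 7.44% and 8.45% of TPM in monosome RNA and 1.79% and 2.16% in polysome RNA. Since every library adds up to the same total, all other isoforms together were lower in ribosome-free TPM by the share that these took.

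TPM were divided by a size factor for each library, the median ratio to the geometric mean of the libraries over isoforms above 0 in all 6. The factors were 0.712 and 0.744 for ribosome-free, 1.19 and 1.19 for monosome and 1.15 and 1.16 for polysome libraries. Without this scaling the median log2 fold change of monosome over ribosome-free RNA was 0.69 over the tested isoforms, and with it the median was 0.11. How much of this shift came from the few abundant short isoforms was not tested. Levels of single isoforms below are rescaled TPM, TPM divided by these factors, and fold changes are differences of log2(rescaled TPM + 1), which understate changes at low levels. The amount of RNA in each fraction is not contained in these values, so higher and lower mean relative to the other isoforms of the same fraction.

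Replicates were closer for monosome than for ribosome-free RNA. Across the tested isoforms, on the log2 scale, Pearson's r was 0.920 between the monosome libraries and 0.847 between the ribosome-free libraries, against 0.717 to 0.740 between a library of one fraction and a library of the other. Isoforms are not independent replicates, and these values are descriptions. Between replicates, log2 levels differed with an SD of 0.84 for monosome and 1.32 for ribosome-free RNA.

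After rescaling, about as many isoforms were higher in monosome RNA as were lower. With limma on all 6 libraries, two-sided and with Benjamini-Hochberg adjustment over the 19667 isoforms, 3029 isoforms (15.4%) had a higher level on monosomes and 2945 (15.0%) a lower level, at an adjusted p under 0.05. Of these, 2271 and 2167 differed by more than 2-fold. Both monosome libraries lay above both ribosome-free libraries in 6719 isoforms and below them in 5892, together 64.1% of those tested.

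The isoforms called higher had a median rescaled TPM of 7.17 and 7.73 in ribosome-free, 25.1 and 24.6 in monosome and 25.1 and 25.8 in polysome RNA. Those called lower had medians of 52.9 and 52.0 in ribosome-free, 17.3 and 18.0 in monosome and 19.8 and 19.1 in polysome RNA. These levels in the 2 compared fractions follow from how the isoforms were called and are given as a description. The isoforms called higher were also longer, with a median read length of 2549 nt against 1858 nt for those called lower and 2207 nt for all tested. In deposited TPM, the isoforms called lower held 68.5% and 67.7% of ribosome-free and 34.6% and 36.7% of monosome RNA. Those called higher held 5.58% and 6.03% of ribosome-free and 23.0% and 22.3% of monosome RNA.

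The balance between the directions rests on the rescaling. Without it, 6304 isoforms were called higher and 1436 lower, so that 81.4% of calls were higher in place of 50.7%. All 3029 isoforms called higher were called higher without scaling too, whereas 1436 of the 2945 called lower kept their call, 278 had a positive fold change and 19 were called higher. Quantile normalization gave 3171 higher and 2692 lower. The counts also rested on single libraries and on the libraries in the fit. With the 4 compared libraries alone, 2170 isoforms were higher and 2185 lower. Fits without a monosome or a polysome library called fewer isoforms in both directions. Those without a ribosome-free library called more isoforms higher and fewer lower. The lone library of a fraction was then assumed to vary like those of the other fractions, whose replicates differed in spread. The main fit likewise assumed the same spread of an isoform in all fractions, polysome RNA included. Yet replicates differed with an SD of 0.84 for monosome and 1.32 for ribosome-free RNA.

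The same fit gave 4175 isoforms (21.2%) higher and 3499 (17.8%) lower in polysome than in ribosome-free RNA, and 2339 (11.9%) higher and 1999 (10.2%) lower in polysome than in monosome RNA. These comparisons share the ribosome-free or the monosome libraries with the one described here. Both rested on single libraries in the same way: without polysome library 1 or 2, 2245 and 2335 isoforms were higher and 2159 and 2173 lower in polysome than in ribosome-free RNA. For polysome against monosome RNA the counts were 787 higher and 758 lower without polysome library 1, 1005 and 938 without polysome library 2, 1200 and 820 without monosome library 1, and 1017 and 694 without monosome library 2.

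Some isoforms were listed at 0 in both libraries of a fraction. Of the tested isoforms, 1155 were at 0 in both ribosome-free and above 0 in both monosome libraries, and 367 showed the reverse. With a level of at least 10 TPM in both libraries of the other fraction, these were 202 and 105 isoforms, of a median read length of 2331 nt and 2185 nt. A value of 0 is an estimate of the model that shared the reads among overlapping isoforms and not a count of 0 reads, so no fold is given for these isoforms. The mean was under 1 TPM in ribosome-free and at least 1 TPM in monosome RNA for 2663 tested isoforms, and 1055 showed the reverse. A further 368 were under 1 TPM in both and were tested because of their polysome level.

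Among isoforms of at least 10 TPM without a gene name here, the 2 highest and the 2 lowest fold changes were of this kind, and their values are given as deposited TPM. The isoform RSN_LD3.102_ccs_146931_5100_0_5100_5100_SUB0_uNAp_43, with a read length of 5100 nt, was listed at 0 in both ribosome-free libraries, at 360 and 262 TPM in monosome RNA and at 371 and 408 TPM in polysome RNA. RNN_LD4.110_ccs_125733_1336_0_1336_1336_SUB0_pTNp_47, of 1336 nt, was at 0 in ribosome-free RNA, at 351 and 243 TPM in monosome RNA and at 1498 and 1528 TPM in polysome RNA. In the other direction, RNN_LD4.110_ccs_72584_1444_0_1444_1444_SUB0_pNAp_32, of 1444 nt, stood at 551 and 607 TPM in ribosome-free RNA and at 0 in both monosome libraries. RSN_LD3.109_ccs_67406_2185_0_2185_2185_SUB0_pTNp_25, of 2185 nt, stood at 347 and 342 TPM in ribosome-free RNA and at 0 in both monosome and both polysome libraries. The limma adjusted p of all 4 was between 0.00023 and 0.00024.

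Long isoforms leaned towards monosome and short isoforms towards ribosome-free RNA. Among the 1120 tested isoforms above 4000 nt, 28.3% were called higher in monosome RNA and 9.11% lower, against 15.4% and 15.0% of all isoforms. Among the 624 isoforms of up to 700 nt, 8.65% were called higher and 21.6% lower. Read length is that of the full-length PacBio read, which includes untranslated regions.

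The median log2 fold change was -0.13 for isoforms of up to 700 nt and -0.20 for the 1090 isoforms of over 700 and up to 1000 nt. In the next classes, which ended at 1500 and 2000 nt, it was -0.05 for 3715 isoforms and 0.00 for 3146. It was 0.15 for the 6373 isoforms of up to 3000 nt, 0.38 for the 3599 isoforms of up to 4000 nt and 0.44 above 4000 nt. The medians were thus in the order of length from the second class upwards, and the shortest class lay just above the second. Over the isoforms above 0 in all 4 compared libraries the medians were lower, at -0.33 in both of the shortest classes, -0.26, -0.19 and -0.02 in the next 3, 0.24 in the class up to 4000 nt and 0.33 above it, against -0.04 over all 13627 such isoforms. The positive median of the class up to 3000 nt thus rested on isoforms at 0 in a compared library. Taken singly, monosome libraries 1 and 2 gave medians of -0.14 and -0.15 up to 700 nt and of 0.42 and 0.45 above 4000 nt. The difference between the longest and the shortest class was 0.57 on the log2 scale, and 0.48 with quantile normalization.

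Without scaling the median was positive in every class, from 0.46 up to 700 nt and 0.42 in the class up to 1000 nt to 1.06 above 4000 nt, so the negative sign of the short classes rests on the rescaling and the order of the classes does not. Up to 700 nt, 54 isoforms were higher and 135 lower, against 75 and 113 with quantile normalization and 157 and 72 without scaling. Above 4000 nt, 317 were higher and 102 lower, against 325 and 87 with quantile normalization and 548 and 46 without scaling. Without monosome library 1 the counts were 21 and 86 up to 700 nt and 144 and 50 above 4000 nt, without monosome library 2 they were 26 and 86 and 149 and 56, and without polysome library 1 they were 40 and 103 and 212 and 65. The lean of the long class was the same in all of these, and that of the short class in all but the fit without scaling. Across all tested isoforms Spearman's rho between read length and log2 fold change was 0.15. Its points share the same 4 libraries, and isoforms of a gene share reads.

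**Figure D1:**
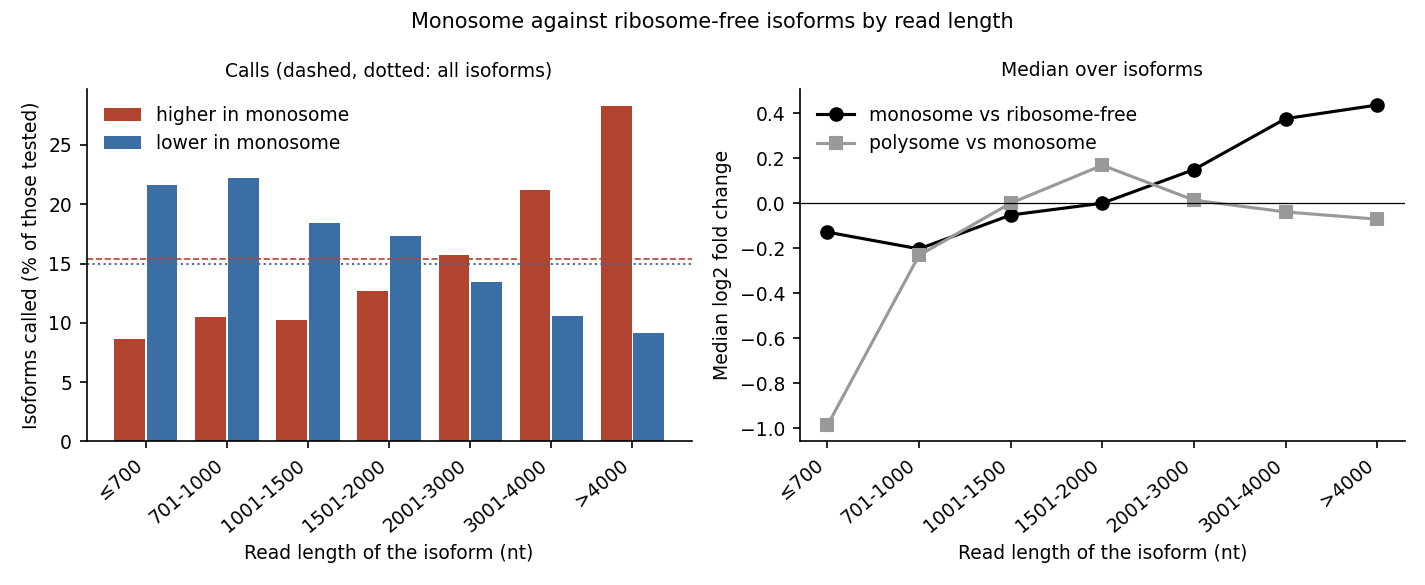
Left, percent of the tested isoforms of each read length class (nt) called higher (red) or lower (blue) in monosome RNA against ribosome-free RNA, with dashed and dotted lines at 15.4% and 15.0% for all isoforms. Right, median log2 fold change per class for monosome against ribosome-free (black) and polysome against monosome (grey), which share the monosome libraries. Calls higher in monosome RNA climb to 28.3% above 4000 nt, and the polysome-to-monosome median is lowest, at -0.99, up to 700 nt.

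Set beside it, the polysome fraction differed from the monosome fraction by the largest median in the shortest class. Up to 700 nt, the median log2 fold change of polysome over monosome RNA was -0.99, and 34.8% of isoforms were lower and 3.85% higher in polysome RNA, against 10.2% and 11.9% of all tested isoforms. It was -0.23 in the class up to 1000 nt, where 20.8% were lower and 15.6% higher, and 0.17 in the class up to 2000 nt. Above 4000 nt it was -0.07, with 5.80% of isoforms higher and 8.30% lower in polysome RNA. For polysome over ribosome-free RNA the medians were -0.98 up to 700 nt and 0.29 above 4000 nt.

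The deposited TPM, which need no rescaling when shares within a library are read, showed the same order of fractions. Isoforms of up to 1000 nt held 47.2% and 46.4% of TPM in ribosome-free, 32.5% and 33.1% in monosome and 21.1% and 22.5% in polysome RNA. Isoforms above 3000 nt held 8.07% and 8.65% in ribosome-free, 15.1% and 15.2% in monosome and 15.5% and 15.4% in polysome RNA. The fractions did not overlap in the share of short isoforms, with a difference of -14.0 percentage points between the mean of monosome and that of ribosome-free RNA. Much of this difference lay in the 10 most abundant ribosome-free isoforms given above, of which 9 are of up to 1000 nt and held 19.4% and 19.3% of TPM in ribosome-free and 7.05% and 8.01% in monosome RNA. With all 10 left out, isoforms of up to 1000 nt held 35.1% and 34.1% of the remaining TPM in ribosome-free, 27.5% and 27.4% in monosome and 19.8% and 20.9% in polysome RNA, still without overlap. An exact permutation test on 2 against 2 libraries cannot give a two-sided p below 0.333, which is the p of the difference of -14.0 points. The read length at the middle of each library's TPM was 1046 and 1062 nt in ribosome-free, 1455 and 1440 nt in monosome and 1692 and 1658 nt in polysome RNA.

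**Figure D2:**
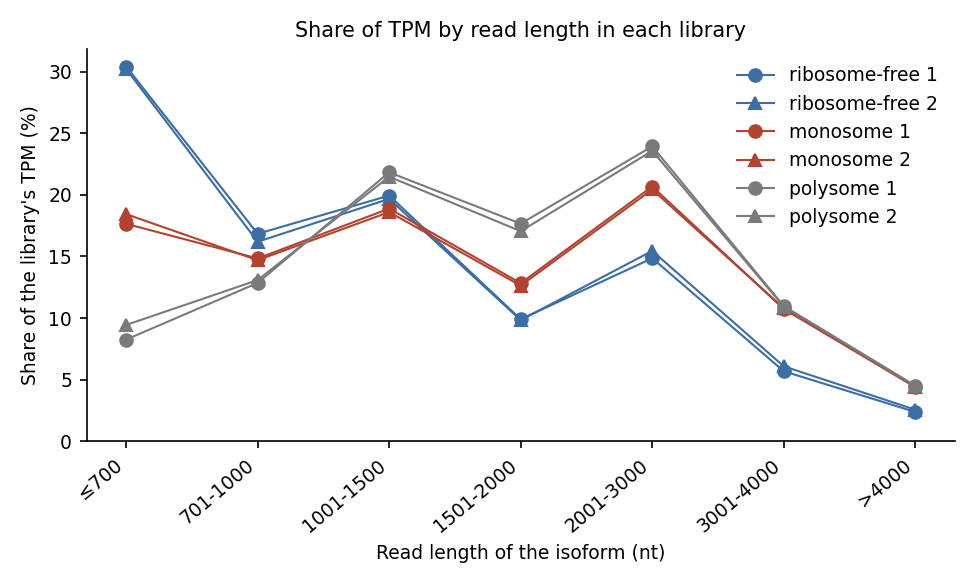
Percent of each library's deposited TPM (y axis) held by isoforms of 7 read length classes in nt (x axis), with a line per library. The ribosome-free libraries (blue) start at 30.4% and 30.2% up to 700 nt, the monosome libraries (red) at 17.6% and 18.4% and the polysome libraries (grey) at 8.25% and 9.44%, and the order is turned above 1500 nt.

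By abundance, calls in both directions became more frequent as the level rose up to 100 TPM, and above it those lower in monosome RNA alone. The fold changes themselves did not spread more widely. Their quartiles on the log2 scale were -0.69 and 1.03 at 1 to 3 TPM, and -0.67 and 0.74 at 30 to 100 TPM. At a mean of 1 to 3 TPM over the 6 libraries, 6.55% of 4288 isoforms (281) were called higher and 5.18% (222) lower. At 10 to 30 TPM it was 17.4% (824) and 16.0% (757) of 4742 isoforms, and at 30 to 100 TPM 25.4% and 23.9% of 3457. Above 100 TPM it was 23.9% and 38.9% of 1649 isoforms, with a median log2 fold change of -0.23 against 0.11 at 10 to 30 TPM. At 1 to 3 TPM the counts were 135 and 89 without monosome library 1, 160 and 98 without monosome library 2, 401 and 350 without ribosome-free library 1 and 398 and 394 without ribosome-free library 2. At 10 to 30 TPM they were 320 and 360 without monosome library 1, 360 and 403 without monosome library 2, 492 and 507 without polysome library 1 and 494 and 508 without polysome library 2. Leaving out monosome library 1 or 2 gave 395 and 488 or 454 and 529 at 30 to 100 TPM, in place of 877 and 826.

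This lean of the most abundant isoforms to ribosome-free RNA depended on the scaling. Above 100 TPM, 394 isoforms were higher and 642 lower, but 568 were higher and 419 lower with quantile normalization and 816 were higher and 307 lower without scaling. Without monosome library 1 or 2, 221 and 253 were higher and 475 and 463 lower. The level used here includes the compared libraries, so the isoforms were also grouped by their mean TPM in the 2 hippocampus libraries of the series, which play no part in the comparison. Of the 1962 isoforms above 100 TPM in hippocampus, 474 were higher and 684 lower in monosome RNA, which became 626 and 458 with quantile normalization, 269 and 481 without monosome library 1 and 295 and 488 without monosome library 2. Of the 1850 tested isoforms at 0 TPM in hippocampus, 187 (10.1%) were higher and 235 (12.7%) lower, and 121 and 161 without monosome library 1.

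Read length and abundance were then combined. The most abundant isoforms were also shorter, with a median of 1621 nt above 100 TPM and 2312 nt at 1 to 3 TPM. Within the isoforms above 100 TPM, 43.2% of the 380 isoforms up to 1000 nt were lower in monosome RNA and 15.0% higher. Of the 239 isoforms above 3000 nt at that level, 17.2% were lower and 49.8% higher. Above 3000 nt, more isoforms were higher than lower in all 5 abundance classes, from 7.77% against 4.86% at 1 to 3 TPM to the values just given, and quantile normalization turned this only at 1 to 3 TPM, to 35 higher and 70 lower. Up to 1000 nt, more isoforms were lower than higher from 3 TPM upwards, also with quantile normalization, and without scaling the order was turned in each of these classes. At 1 to 3 TPM, 16 of these short isoforms were higher and 7 lower, and 7 and 9 with quantile normalization.

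**Figure D3:**
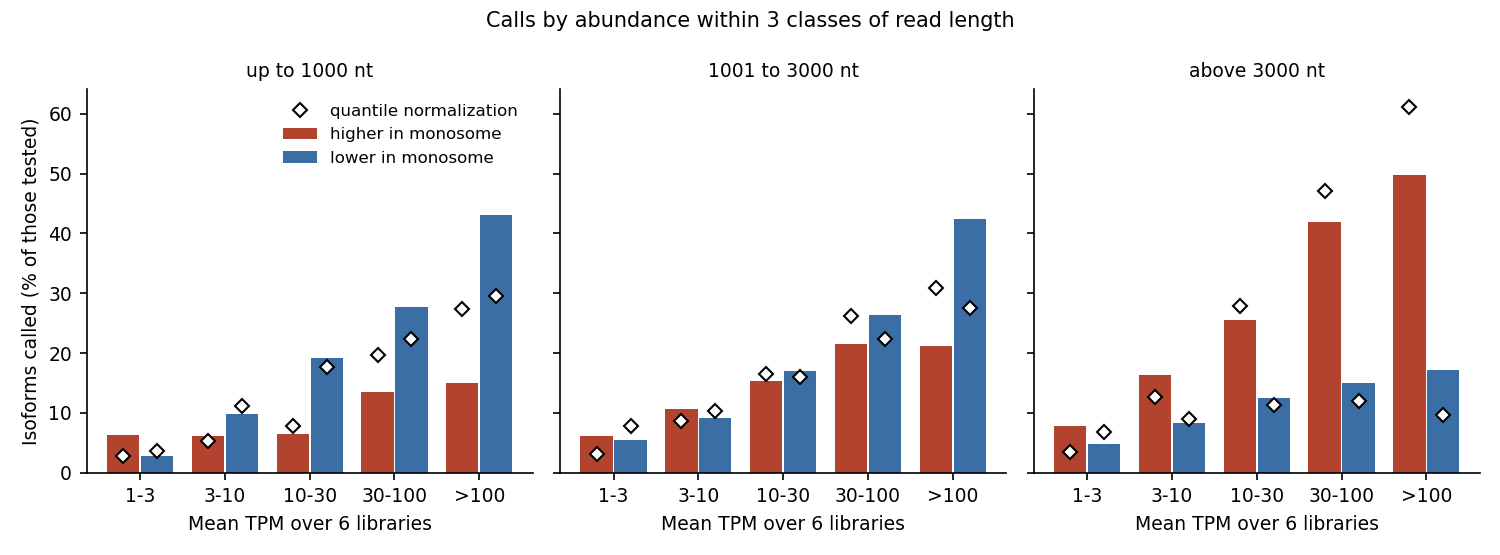
Percent of tested isoforms called higher (red) or lower (blue) in monosome RNA by mean TPM over 6 libraries, in panels for read lengths up to 1000 nt, from there to 3000 nt and above 3000 nt. Diamonds give the same with quantile normalization. Above 3000 nt and 100 TPM the bars stand at 49.8% higher and 17.2% lower, and up to 1000 nt at 15.0% and 43.2%.

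For isoforms paired with genes, names were taken from the study's lists of isoforms whose open reading frames differ from the annotated protein. The first list holds isoforms whose altered N-terminus gains or loses a predicted signal peptide, the leader that sends a protein to the endoplasmic reticulum, and the other holds unannotated open reading frames (ORFs). Together 543 isoforms with 385 gene labels could be matched, and 449 isoforms with 338 labels were tested. The study chose both lists among isoforms that it predicted to be translated with the use of these libraries, so their direction is not independent evidence. The genes were also sorted into 8 groups by textbook function, such as receptors, lysosomal or mitochondrial proteins, and each group's counts, from the fit with all 6 libraries, are to be read against the 15.4% higher and 15.0% lower of all tested isoforms.

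Of the 449 isoforms, 94 (20.9%) had a higher and 46 (10.2%) a lower level in monosome RNA, and their log2 fold changes had a median of 0.34, against 0.11 over all tested isoforms. The median read length was 2319 nt. Without scaling 178 were higher and 23 lower, and with quantile normalization 107 and 41. Without monosome library 1, 36 were higher and 29 lower, and without monosome library 2, 46 and 29. Isoforms with a signal peptide lost, 66 higher and 33 lower of 319, and gained, 21 higher and 10 lower of 104, had shares of 20.7% and 20.2% higher and 10.3% and 9.62% lower.

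Among the called isoforms of the signal peptide list that averaged 10 TPM or more, those with the largest changes towards monosome RNA came from Gabbr1, which encodes a subunit of the metabotropic GABA-B receptor. Its isoform of 2805 nt stood at 6.38 and 16.2 rescaled TPM in ribosome-free RNA, at 386 and 330 in monosome RNA and at 395 and 458 in polysome RNA. The log2 fold change of monosome over ribosome-free RNA was 4.99 (SE 0.40, limma adjusted p = 0.0018), and a number that opens a parenthesis in what follows is the same quantity unless another pair of fractions is named. A shorter Gabbr1 isoform of 2418 nt was at 0 and 2.45 rescaled TPM in ribosome-free RNA and at 11.8 and 17.0 in monosome RNA. Its change of 3.03 had an adjusted p of 0.022, ranged from 1.66 to 4.82 over the alternatives and was not called when any one of the monosome and polysome libraries was left out. The longest of the 3 tested Gabbr1 isoforms, of 3611 nt, had a smaller change of 0.70.

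The other neurotransmitter receptor with named isoforms was Gabrg1, the gamma 1 subunit of the ionotropic GABA-A receptor, and its isoforms went both ways. The isoform of 3538 nt had 30.1 and 26.8 rescaled TPM in ribosome-free RNA and 6.66 and 4.16 in monosome RNA, a log2 fold change of -2.23 (SE 0.27, adjusted p = 0.0048). The isoform of 4235 nt had 61.9 and 65.2 in ribosome-free and 28.3 and 23.1 in monosome RNA (-1.28, adjusted p = 0.0085), and lost its call without scaling and without monosome library 2. The isoform of 7522 nt was at 0 in both ribosome-free libraries and at 4.12 and 4.46 in monosome RNA (adjusted p = 0.035), and was not called when any one of the 4 compared libraries was left out. Of the 18 tested isoforms of receptor genes, 5 were higher and 3 lower.

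Among genes of the synapse and neuronal membrane, 9 of 36 tested isoforms were higher and 4 lower, with a median log2 fold change of 0.71. In polysome against ribosome-free RNA, 12 of them were higher and 6 lower, with a median of 0.90. For polysome over monosome RNA the median was -0.09. Sort1, the sorting receptor sortilin, had 40.01 and 47.5 rescaled TPM in ribosome-free RNA and 160 and 166 in monosome RNA in its isoform of 3301 nt (1.88, SE 0.12, adjusted p = 0.0011). Ptprn2, a transmembrane protein of dense-core vesicles, had 24.8 and 14.8 in ribosome-free and 145 and 103 in monosome RNA in its isoform of 3237 nt (2.61, adjusted p = 0.0037). In both, polysome levels, of 167 and 158 for Sort1 and of 150 and 144 for Ptprn2, were close to those of monosome RNA. The other tested isoform of Sort1, of 3349 nt, had a change of 1.68. That of Ptprn2, of 3043 nt, went the other way, with a change of -0.57.

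The largest change towards ribosome-free RNA in this group was that of Ntrk2, which encodes TrkB, the receptor for brain-derived neurotrophic factor. Its isoform of 1825 nt, with a truncated N-terminus and no predicted signal peptide, stood at 179 and 146 rescaled TPM in ribosome-free RNA, at 2.85 and 9.77 in monosome RNA and at 2.36 and 5.29 in polysome RNA. The log2 fold change of monosome over ribosome-free RNA was -4.66 (SE 0.57, adjusted p = 0.0051). An isoform of 2455 nt of Gpm6b, a neuronal membrane glycoprotein, with an ORF in its 3′ untranslated region, had 269 and 238 in ribosome-free, 56.1 and 80.3 in monosome and 40.3 and 40.2 in polysome RNA (-1.90, adjusted p = 0.0029).

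Of the 30 tested isoforms of lysosomal genes, 5 were higher and 3 lower in monosome RNA, and all those called that averaged 10 TPM or more were higher. Smpd1, acid sphingomyelinase, had 34.1 and 35.0 rescaled TPM in ribosome-free RNA and 75.3 and 81.4 in monosome RNA (1.16, SE 0.10, adjusted p = 0.0021). Ctsa, which encodes cathepsin A, had 14.8 and 24.3 in ribosome-free and 60.0 and 57.5 in monosome RNA (1.58, adjusted p = 0.0091). Plbd2, a phospholipase B-like protein, and Ctsd, the protease cathepsin D, had changes of 0.97 and 0.61 (adjusted p = 0.0084 and 0.013). The calls of Ctsa, Plbd2 and Ctsd were lost without monosome library 1, and that of Ctsa also without monosome library 2.

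In the endoplasmic reticulum group, 5 of 32 tested isoforms were higher and 6 lower, with a median log2 fold change of 0.08. Selenot, a selenoprotein of this compartment, had 60.6 and 56.3 rescaled TPM in ribosome-free, 333 and 332 in monosome and 172 and 185 in polysome RNA in its isoform of 1867 nt. Monosome RNA lay above ribosome-free RNA (2.49, SE 0.09, adjusted p = 0.00037) and polysome RNA below monosome RNA (-0.90, adjusted p = 0.0037), so both monosome libraries lay above all 4 others.

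Dnajb11, a co-chaperone of protein folding, was lowest in the monosome libraries. Its isoform of 1780 nt had 25.9 and 24.7 rescaled TPM in ribosome-free, 4.30 and 7.48 in monosome and 22.1 and 15.1 in polysome RNA. The change was -1.97 for monosome over ribosome-free RNA (adjusted p = 0.010) and 1.53 for polysome over monosome RNA (adjusted p = 0.027), and the first was not called without ribosome-free library 1, ribosome-free library 2 or monosome library 1. Ddrgk1, an adaptor of the UFM1 conjugation pathway, and Tmco1, a calcium channel of the reticulum, fell by 1.003 and 0.88 on the log2 scale (adjusted p = 0.0026 and 0.0053), and neither was called without scaling.

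Of 41 tested isoforms of mitochondrial genes, 6 were higher and 5 lower. The isoform of 3086 nt of Hars2, the mitochondrial histidyl-tRNA synthetase, was at 47.9 and 61.3 rescaled TPM in ribosome-free RNA, at 0 in both monosome libraries and at 0 and 1.82 in polysome RNA (adjusted p = 0.0029). Ckmt1, a mitochondrial creatine kinase, had 172 and 204 in ribosome-free, 52.9 and 78.5 in monosome and 182 and 170 in polysome RNA in its isoform of 1099 nt. It was lower in monosome than in ribosome-free RNA (-1.52, SE 0.21, adjusted p = 0.0069) and higher in polysome than in monosome RNA (1.43, adjusted p = 0.010). The other tested Ckmt1 isoform, of 1517 nt, had a change of 0.65 for monosome over ribosome-free RNA.

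Ngrn, which encodes neugrin, had 4 tested isoforms, and those called went in opposite directions. The isoform of 1300 nt had 79.6 and 88.7 rescaled TPM in ribosome-free and 35.9 and 27.7 in monosome RNA (-1.39, adjusted p = 0.0091). The isoform of 2011 nt had 82.8 and 52.8 in ribosome-free and 166 and 133 in monosome RNA (1.15, adjusted p = 0.024). The first call was lost without monosome library 2, ribosome-free library 2 or scaling, and the second without ribosome-free library 2 or any one of the monosome and polysome libraries.

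Among genes of secreted proteins, 9 of 40 tested isoforms were higher and 4 lower. Metrn, which encodes meteorin, a secreted factor of glial and neuronal differentiation, stepped down from fraction to fraction. Its isoform of 916 nt had 1934 and 1470 rescaled TPM in ribosome-free, 355 and 428 in monosome and 65.0 and 81.7 in polysome RNA. The change was -2.11 for monosome over ribosome-free RNA (SE 0.19, adjusted p = 0.0024) and -2.40 for polysome over monosome RNA (adjusted p = 0.0025).

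Bcan, the brain proteoglycan brevican, had 44.2 and 74.5 rescaled TPM in ribosome-free, 163 and 181 in monosome and 203 and 227 in polysome RNA (1.56, adjusted p = 0.011). Olfm2, olfactomedin 2, had 19.4 and 28.1 in ribosome-free and 64.3 and 53.8 in monosome RNA (1.30, adjusted p = 0.010). Lgi4, a secreted protein that acts in myelination, had 1.31 and 9.69 in ribosome-free and 38.8 and 31.4 in monosome RNA (2.85, SE 0.74, adjusted p = 0.041). That the ribosome-free and monosome libraries did not overlap was a condition for naming these isoforms, and it held for 64.1% of all tested isoforms. None of the 3 was called without monosome library 1 or without monosome library 2. Lgi4 was also not called without polysome library 1 or without polysome library 2. Of the 4 tested Lgi4 isoforms, that described is the longest, of 3699 nt, and the shortest, of 2541 nt, had a change of -0.53.

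Of 15 tested isoforms of solute transporters, 2 were higher and 0 lower by limma, and 3 and 2 at an unadjusted p under 0.05. Those called were Slc20a1, a phosphate transporter, with 35.4 and 46.3 rescaled TPM in ribosome-free and 93.0 and 108 in monosome RNA (1.29, adjusted p = 0.0056), and Slc24a4, a sodium, potassium and calcium exchanger, with a change of 0.88 (adjusted p = 0.017) that was not called with either monosome library left out. Of 20 tested isoforms of genes of the nucleus and RNA, 3 were higher and 2 lower. Bcl7b and Smarca2, both of SWI/SNF chromatin remodelling complexes, fell by 1.01 and 0.70 on the log2 scale (adjusted p = 0.0029 and 0.044). Neither was called without scaling, and Smarca2 lost its call when any library other than ribosome-free library 2 was left out.

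Several isoforms outside these groups were among the largest changes of the signal peptide list at a mean of at least 10 TPM. Kifc2, a kinesin motor, had 69.6 and 101 rescaled TPM in ribosome-free, 336 and 289 in monosome and 73.5 and 85.1 in polysome RNA in its isoform of 3514 nt. Monosome RNA lay above ribosome-free RNA (1.88, SE 0.21, adjusted p = 0.0038) and polysome RNA below monosome RNA (-1.97, adjusted p = 0.0041), and polysome differed from ribosome-free RNA by -0.08 (adjusted p = 0.79). Its level was thus highest in monosome RNA, with no overlap with the other 4 libraries.

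Pde2a, a phosphodiesterase of cyclic nucleotides, had isoforms of 4053 and 4440 nt with changes of 2.10 and 1.97 (adjusted p = 0.013 and 0.0050). The first had 21.0 and 46.9 rescaled TPM in ribosome-free and 133 and 145 in monosome RNA, and was not called when any one of the monosome and polysome libraries was left out. Gas7, a growth arrest-specific protein, had 26.6 and 16.2 in ribosome-free and 75.3 and 79.1 in monosome RNA (1.84, adjusted p = 0.0059), a call lost with either monosome library left out.

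Towards ribosome-free RNA, the isoform of 1276 nt labelled with both Kti12 and Txndc12 had 85.7 and 96.3 rescaled TPM in ribosome-free and 17.2 and 12.4 in monosome RNA (-2.55, SE 0.20, adjusted p = 0.0018). Rnf150, a RING finger protein, had 93.7 and 84.0 in ribosome-free and 32.1 and 31.3 in monosome RNA (-1.46, adjusted p = 0.0020). Dph5, an enzyme of diphthamide synthesis, had 36.2 and 33.3 in ribosome-free and 10.7 and 13.8 in monosome RNA (-1.44, adjusted p = 0.0069). All 3 were called in each of the 16 alternatives.

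**Figure D4:**
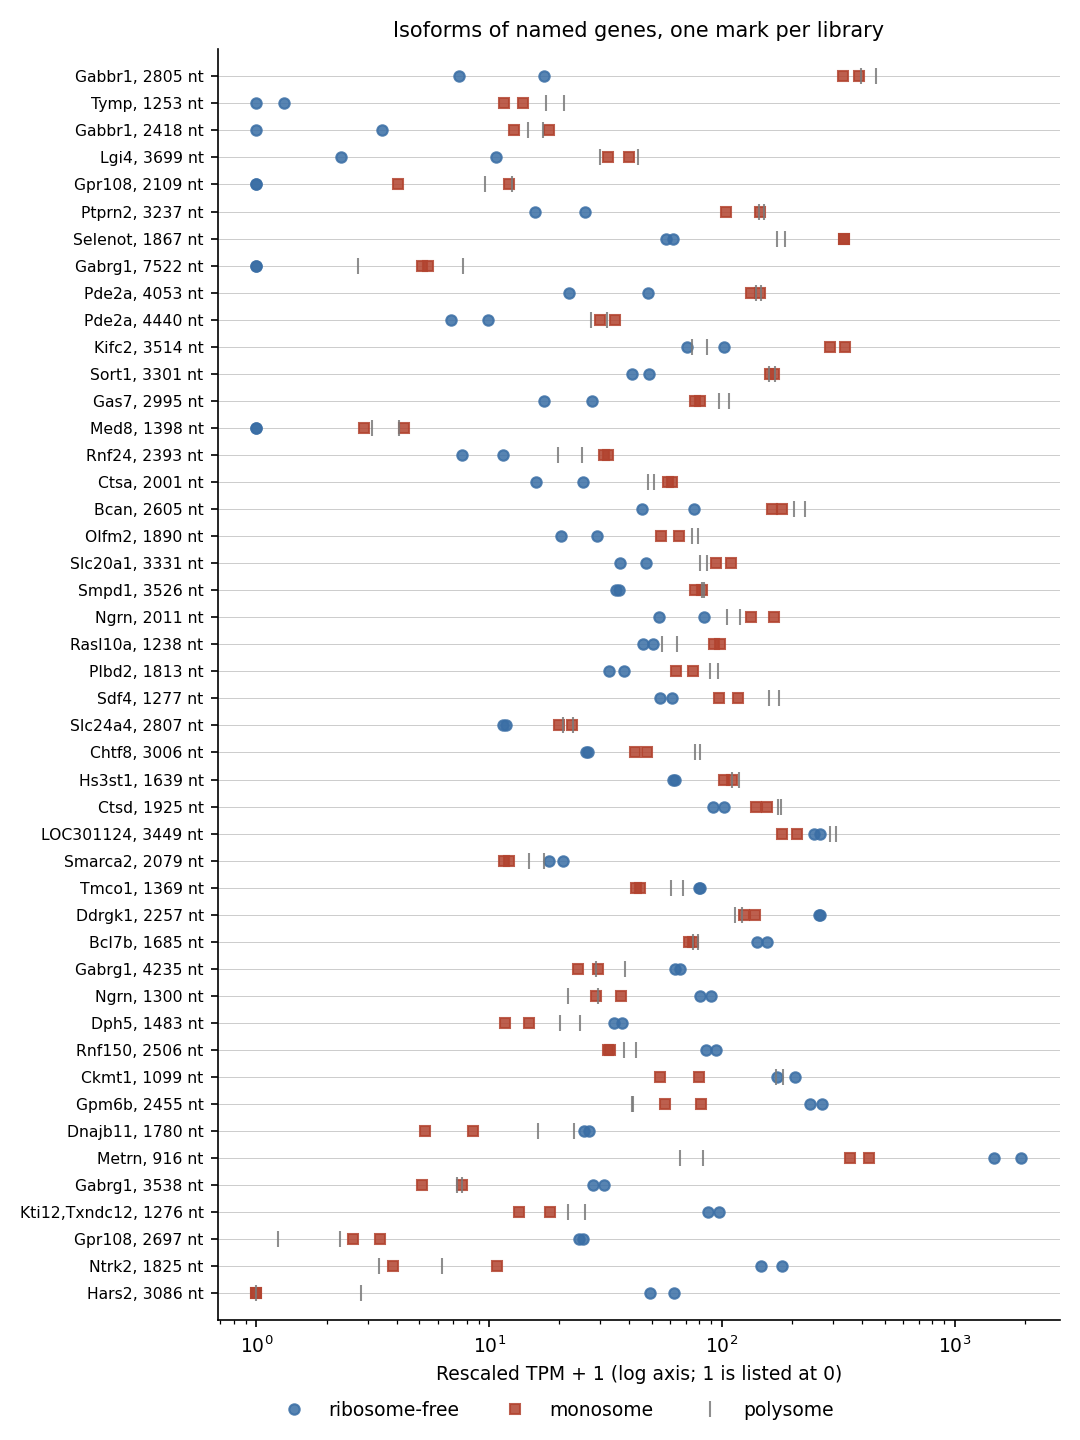
Rescaled TPM + 1 on a log axis for the 46 isoforms named with their genes and read lengths, with 2 marks per fraction, ribosome-free (blue circles), monosome (red squares) and polysome (grey bars), in order of the log2 fold change of monosome over ribosome-free RNA. Gabbr1 of 2805 nt is at the top, with 6.38 and 16.2 rescaled TPM in ribosome-free and 386 and 330 in monosome RNA, and Hars2 of 3086 nt, at 0 in both monosome libraries, is at the bottom.

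Of the 26 tested isoforms with unannotated ORFs, 7 (26.9%) had a higher and 3 (11.5%) a lower level in monosome RNA. Of all tested isoforms these shares were 15.4% and 15.0%. Without scaling 13 of the 26 were higher and 1 lower, and with quantile normalization 8 and 2. In polysome against ribosome-free RNA, 10 (38.5%) of the 26 were higher and 3 (11.5%) lower, against 21.2% and 17.8% of all tested isoforms. The isoform of 1253 nt of Tymp, thymidine phosphorylase, had 0 and 0.309 rescaled TPM in ribosome-free and 12.9 and 10.6 in monosome RNA (adjusted p = 0.0022), and its log2 fold change of 3.47 ranged from 1.70 to 5.86 over the alternatives. A Tymp isoform of 1904 nt had 12.5 and 13.7 in ribosome-free and 11.97 and 11.9 in monosome RNA (-0.13, adjusted p = 0.65).

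Rnf24, a RING finger protein, had 10.5 and 6.67 rescaled TPM in ribosome-free and 31.5 and 30.3 in monosome RNA (1.76, adjusted p = 0.0082), a call lost with either monosome library left out. Rasl10a, a Ras-like GTPase, had 44.9 and 49.4 in ribosome-free, 97.0 and 91.1 in monosome and 54.4 and 62.9 in polysome RNA. Monosome RNA lay above ribosome-free RNA (0.98, adjusted p = 0.0052) and polysome RNA below monosome RNA (-0.67, adjusted p = 0.019), like Selenot and Kifc2.

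Sdf4, a calcium-binding protein of the Golgi, had 53.3 and 60.0 rescaled TPM in ribosome-free, 96.4 and 116 in monosome and 174 and 157 in polysome RNA, and Chtf8, a factor of sister chromatid cohesion, had 25.5 and 25.05, 46.7 and 41.1, and 75.9 and 79.4 in the same order. Their changes from ribosome-free to monosome RNA were 0.89 and 0.77 (adjusted p = 0.0091 and 0.0092), and those from monosome to polysome RNA were 0.64 and 0.81 (adjusted p = 0.029 and 0.0098). Hs3st1, a heparan sulfate sulfotransferase, had a change of 0.77 (adjusted p = 0.0054). The isoform of 1398 nt of Med8, a subunit of the Mediator complex, was at 0 in both ribosome-free libraries and at 3.32 and 1.90 in monosome RNA (adjusted p = 0.033), and was not called when any one of the 4 compared libraries was left out.

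The isoform of 3449 nt of LOC301124 had 262 and 247 rescaled TPM in ribosome-free and 210 and 180 in monosome RNA. Its change of -0.39 had an adjusted p of 0.0497, was not called when any one of the 6 libraries was left out and became 0.32 without scaling, so neither its call nor its direction held in these alternatives.

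Isoforms of the same gene were compared for 77 genes with at least 2 tested isoforms of different read length. The longest isoform had a higher log2 fold change than the shortest in 41 genes and a lower one in 36, with a median difference of 0.05. Of the 12 genes with at least 2 isoforms called, Gabrg1, Gpr108 and Ngrn had isoforms called in both directions. Gpr108, a membrane protein of the Golgi, had an isoform of 2697 nt with 23.2 and 24.2 rescaled TPM in ribosome-free and 2.41 and 1.60 in monosome RNA (-3.05, SE 0.42, adjusted p = 0.0069). Its isoform of 2109 nt was at 0 in both ribosome-free libraries and at 11.2 and 3.04 in monosome RNA (adjusted p = 0.024), a call lost when either ribosome-free library, monosome library 1 or either polysome library was left out. The difference between isoforms of a gene was not itself tested, and isoforms that overlap compete for the same reads, so their levels are not independent.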

How the data were processed

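Whole rat brain was fractionated by ribosome load, and each of the 3 fractions was sequenced in 2 libraries. The authors removed adapters with flexbar and ran RSEM with Bowtie 2 (paired-end reads, version not given in the sources used here) against their 28268 FLTs, and deposited TPM with 2 decimals per library, not pooled. RSEM shares reads among overlapping isoforms, so a value of 0 is an estimate. The submitters' processing notes also name TopHat2 and the rn6 build. TPM keep no read counts, so depth is unknown, and no counting interval or detection limit was computed.

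TPM were divided by median-ratio size factors of the 6 libraries. Isoforms averaging 1 TPM or more were tested on log2(rescaled TPM + 1) in R 4.3.3 by linear models with a moderated variance that follows the mean level (limma 3.58.1), with all 6 libraries in the fit and no covariate, two-sided, with Benjamini-Hochberg adjustment over 19667 isoforms and a threshold of 0.05. The scripts were tested on simulated data. Counts and plots were made with Python 3.11.15, pandas 2.3.3, numpy 2.4.6, scipy 1.17.1 and matplotlib 3.10.9.

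Read lengths come from the isoform identifiers. Gene labels come from the study's signal peptide list, of which 516 of 524 lines matched an identifier, and its list of unannotated ORFs, of which 27 of 27 did. Of 399 gene symbols, 386 were found as RefSeq symbols and 12 as synonyms. Coordinates and isoform sequences are not reported here. The members, the gene groups and the markers were chosen with earlier results of these data known.

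Named isoforms were called, had a mean of at least 10 TPM and did not overlap between the fractions. They are the 2 highest and 2 lowest without a gene name, the 10 highest and 10 lowest of the signal peptide list, every called isoform with an unannotated ORF, and up to 4 per gene group with the largest changes. Isoforms of genes called in opposite directions were named whatever their mean, as were called isoforms with unannotated ORFs (Med8). The Tymp isoform of 1904 nt was added after its values were seen.

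Alternatives changed the scaling (none, quantile, equal medians), the pseudocount (0.1 or 5), the filter (none, or at least 5 TPM), the libraries in the fit, the prior variance, a replicate block or a required fold change of 2, or left out each library in turn.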

Additional observations from a re-analysis of the deposited data

How the results depend on the processing

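Scaling and single libraries both moved the counts. Without scaling, 6304 isoforms were higher and 1436 lower in monosome than in ribosome-free RNA, 6710 higher and 2191 lower in polysome than in ribosome-free RNA, and 178 higher and 23 lower among the isoforms paired with genes. When single libraries were left out, the counts ranged from 1325 to 3464 higher and 1649 to 2556 lower for monosome against ribosome-free RNA, from 2245 to 4384 and from 2159 to 3324 for polysome against ribosome-free, from 787 to 2697 and from 694 to 2470 for polysome against monosome, and from 36 to 103 and from 29 to 40 among the isoforms paired with genes. Requiring a fold change of at least 2 left 1537 isoforms higher in polysome than in monosome RNA and 58 higher among those paired with genes. The other alternatives kept these counts within 1.5 times.

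The median log2 fold change of monosome over ribosome-free RNA was 0.69 without scaling, 0.067 with quantile normalization, 0.059 with equal medians, 0.16 and 0.0498 with pseudocounts of 0.1 and 5, 0.088 without a filter, 0.066 at a mean of at least 5 TPM, and 0.055 to 0.11 with a library left out. The difference between isoforms above 4000 nt and those up to 700 nt was 0.48 with quantile normalization, 0.44 with a pseudocount of 5, 0.40 without a filter, 0.70 at a mean of at least 5 TPM and 0.56 to 0.71 with a library left out. The difference between isoforms above 100 TPM and those of 10 to 30 TPM was -0.34, and it was -0.29 without scaling, -0.044 with quantile normalization, -0.29 with equal medians and -0.40 to -0.29 with a library left out.

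Across isoforms, the deviations of same-numbered libraries from their fraction means correlated by 0.0021, 0.0021 and -0.010, so no shared deviation was seen. These values cannot tell whether same-numbered libraries came from the same animal or gradient. With the replicate number as a block, 2292 isoforms had a higher and 2445 a lower level in monosome RNA. The LOC301124 isoform of 3449 nt turned from -0.39 to 0.32 without scaling. Of the 50 named isoforms, 27 were called in the same direction in every alternative that fitted them again, and 18 and 16 lost their call without monosome libraries 1 and 2. The cause of these changes was not tested.

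With 2 libraries per fraction, no exact permutation test can pass the threshold, and a fit without a library assumes that the lone library varies like the others. The main fit also assumes the same spread of an isoform in all fractions. TPM do not show how many reads stand behind an isoform, including those of low level or listed at 0.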
